A study of Mus musculus with 6 samples.

Results

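The cell cycle and proliferation genes described here are 40 genes chosen by symbol for their roles in division, and all 40 were found among the 17582 genes of the deposited expression table. They comprise 5 G1 cyclins and their kinases, 3 inhibitors of cyclin-dependent kinases, 4 genes of the G1/S switch, 10 genes of S phase and 18 genes of G2 and mitosis. Whole first mandibular molars of C57BL/6 mice at postnatal day 4 were profiled by mRNA sequencing on the BGISEQ-500. The knockout group (K14-Cre; Wnt10aflox/flox) had 3 libraries, and the control group (littermates with Wnt10aflox/flox and no Cre) had 3. Both groups carried the floxed Wnt10a alleles, so they differ by the Cre transgene and by the deletion it makes. The keratin 14 promoter drives Cre in epithelium, so the mesenchyme of a knockout molar keeps its Wnt10a alleles. Whether a library holds 1 animal or several is not in the labels, and p-values here measure only the spread between these libraries, which may be technical.

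A cell enters division when D-type cyclins activate Cdk4 and Cdk6, which phosphorylate the retinoblastoma protein and release E2F factors. E2F factors switch on cyclin E and the genes of DNA replication, and a later programme led by cyclin A, cyclin B and Cdk1 carries the cell through G2 and mitosis. Inhibitors of the CIP/KIP family bind the cyclin and kinase complexes and hold cells in G1 when they differentiate. In a molar of this stage, dividing cells are found in the inner enamel epithelium of the cervical loops and in the dental papilla, while secretory ameloblasts and odontoblasts have left the cell cycle.

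Genes of the S-phase and mitotic programmes are known to carry different promoter elements. The promoters of some members are shown to compare these elements between the S-phase and the mitotic genes. The members shown were picked by hand, and counts over all members with a window follow. The sequences are the RefSeq start-site windows on GRCm38.p6 (the assembly of mm10), from which bases -150 to -1 are printed 5′ to 3′ on the strand of the gene. Capitals mark CCAAT, the box bound by NF-Y, TTTGAA, the cell cycle genes homology region (CHR) bound by the MuvB core of the DREAM complex, and the core bound by E2F factors, each on either strand. The E2F core was searched in 4 spellings, which were TTCCCGC as in the Rrm1 window, then TTGGCGC as in the Mcm6 window, then TTCGCGC as in the Cdk1 window, and last TTGCCGC. The first 6 genes belong to G2 and mitosis and the last 2 to S phase.
Cdk1: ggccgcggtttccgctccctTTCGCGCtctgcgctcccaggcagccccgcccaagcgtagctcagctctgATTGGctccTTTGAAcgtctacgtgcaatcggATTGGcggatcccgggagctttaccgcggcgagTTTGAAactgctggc
Top2a: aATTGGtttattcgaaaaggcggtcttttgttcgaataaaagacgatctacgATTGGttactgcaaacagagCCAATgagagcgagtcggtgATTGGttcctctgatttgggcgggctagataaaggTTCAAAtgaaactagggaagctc
Kif11: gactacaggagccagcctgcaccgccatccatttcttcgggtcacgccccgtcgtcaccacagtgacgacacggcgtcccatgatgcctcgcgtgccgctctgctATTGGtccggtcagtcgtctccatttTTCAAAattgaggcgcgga
Cdc20: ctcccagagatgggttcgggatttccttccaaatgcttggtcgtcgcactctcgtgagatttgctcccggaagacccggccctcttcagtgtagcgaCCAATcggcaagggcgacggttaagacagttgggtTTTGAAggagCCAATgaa
Mki67: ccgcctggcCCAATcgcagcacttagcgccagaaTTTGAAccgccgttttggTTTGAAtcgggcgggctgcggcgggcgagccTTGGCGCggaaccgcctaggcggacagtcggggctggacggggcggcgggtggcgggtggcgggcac
Ccnb2: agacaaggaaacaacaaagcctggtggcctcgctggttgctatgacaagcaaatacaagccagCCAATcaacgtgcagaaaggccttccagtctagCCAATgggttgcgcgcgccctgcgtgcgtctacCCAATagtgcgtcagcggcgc
Mcm6: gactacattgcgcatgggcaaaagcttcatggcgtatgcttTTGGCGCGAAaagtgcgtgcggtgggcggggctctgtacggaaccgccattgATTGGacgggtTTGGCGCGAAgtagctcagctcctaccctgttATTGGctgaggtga
Rrm1: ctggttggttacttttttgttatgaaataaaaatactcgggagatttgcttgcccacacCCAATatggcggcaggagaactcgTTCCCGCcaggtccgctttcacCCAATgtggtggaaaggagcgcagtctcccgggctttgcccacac
The stretches lie at chr10:69352913-69353062 (minus strand) for Cdk1, chr11:99024190-99024339 (minus strand) for Top2a, chr19:37376232-37376381 (plus strand) for Kif11 and chr4:118437344-118437493 (minus strand) for Cdc20. Those of Mki67 and Ccnb2 lie at chr7:135716380-135716529 (minus strand) and chr9:70421555-70421704 (minus strand). Those of Mcm6 and Rrm1 lie at chr1:128359706-128359855 (minus strand) and chr7:102441545-102441694 (plus strand).

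The CHR letters were found mainly among the mitotic members and the E2F cores mainly among the S-phase members. Windows of 300 bases, from 250 before the start to 50 after it, were matched for 32 of the 40 members. TTTGAA occurred in the windows of 10 of 15 G2 and mitosis members (66.7%) and 1 of 9 S-phase members (11.1%), against 13.9% of the 9229 tested genes with a window and 20.2% of all 27025 genes in the promoter table. An E2F core occurred in 3 of 15 G2 and mitosis members and 6 of 9 S-phase members (66.7%), against 19.6% of tested genes and 10.9% of all genes. The S-phase members Pcna, Mcm2 and Tyms held no E2F core, unlike the printed Mcm6 and Rrm1. CCAAT occurred in 13 of 15 (86.7%) and 8 of 9 (88.9%), against 42.7% of tested genes and 41.1% of all genes. The E2F cores overlap each other in some windows, as in Mcm6, and an E2F core can overlap CCAAT, as in Ccnb1. A match describes the letters and does not show that a factor binds there. The windows of Cdkn1a, Cdkn1b, Ccnd3, Cdk4 and Cdk6 held neither TTTGAA nor an E2F core. Of the G1/S switch members, 1 of 3 with a window held an E2F core (Cdk2), and Ccne1 and E2f1 held none of the motifs. Ccnd1, Ccnd2, Cdkn1c, Ccne2, Mcm4, Ccna2, Aurkb and Tpx2 were not matched.

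**Figure D1:**
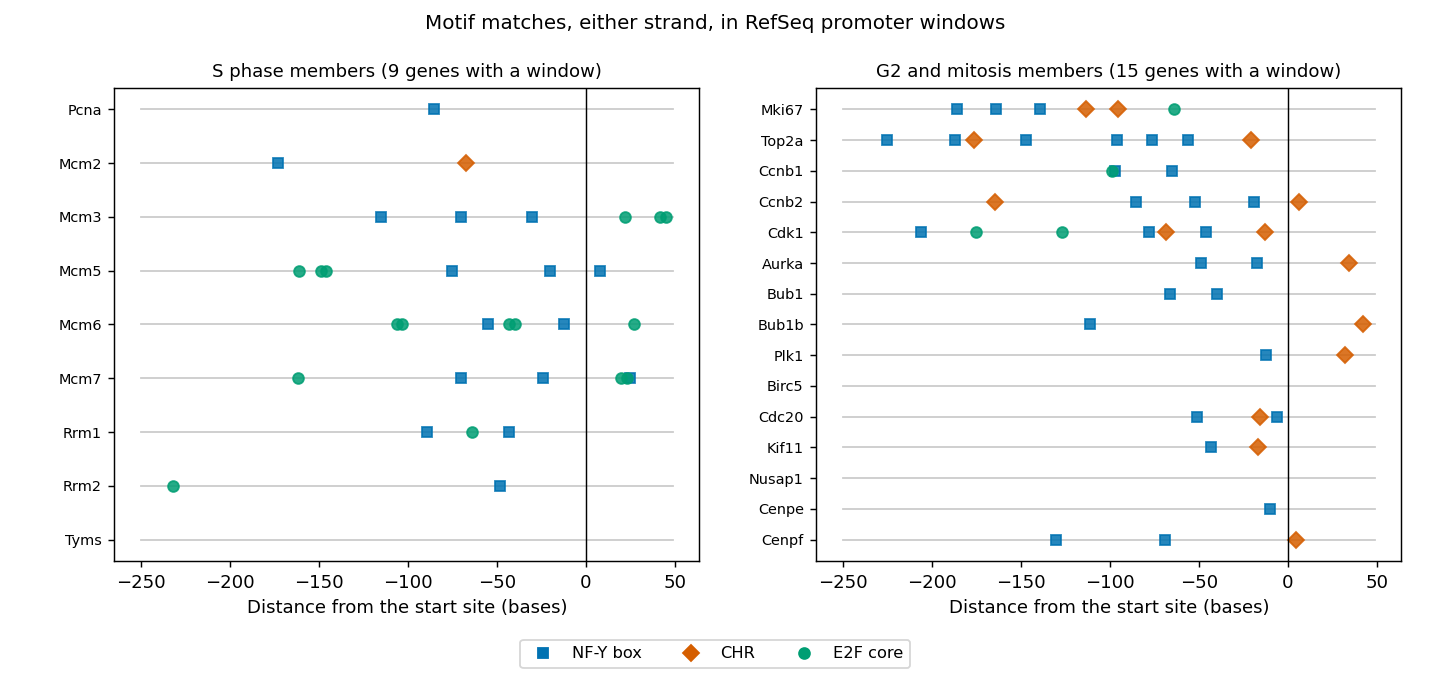
Positions of NF-Y boxes (CCAAT, squares), CHR elements (TTTGAA, diamonds) and E2F cores (circles) in the start-site windows of the S-phase members (left) and the G2 and mitosis members (right); the x axis is distance from the start site in bases, and 1 window is drawn per gene. Diamonds appear in 10 of the 15 windows on the right and in 1 of the 9 on the left, and circles in 3 and in 6.

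Levels are given in FPKM, a read density that allows for transcript length and for the library's total. They can be compared between genes as far as the 1 length used for each gene holds. Depth, estimated from the steps between low values, was between 18180000 and 18660000 reads per library, and the members were read at between 45 (Bub1) and 8634 reads (Cdkn1a) in a library. The targeted gene checked the labels. Wnt10a stood at 19.39, 19.94 and 18.07 FPKM in the knockout libraries and at 33.61, 36.59 and 31.68 FPKM in controls, and was the 1 gene of 11934 (0.00838%) past an adjusted p of 0.05 in the limma-trend fit (log2 fold change -0.80, SE 0.077, adjusted p = 0.00609). Genes of the labelled tissue were present, with all 6 ameloblast, all 6 dental epithelium, all 5 dental papilla and 4 of 5 odontoblast markers above the filter of 1 FPKM in at least 3 libraries. The authors' FPKM tended to be low in knockout 3 and control 3. There the median gene deviated by -0.05 and -0.057 (log2) from its mean over the 6 libraries. The ameloblast gene Amelx alone held 35.9% and 35.7% of the summed FPKM in these libraries, and between 30.6% and 34.3% in the others. The part of Amelx in the low values was not tested. In whole molars, fewer dividing cells and less RNA of a gene per cell cannot be told apart.

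No member passed the test. Of the 40 members, 37 passed the filter, and 0 of 37 passed an adjusted p of 0.05 against 0.00838% of all genes tested. Their lowest limma adjusted p was 0.869. At an unadjusted limma p under 0.05 there was 1 member, Aurkb, where 5.7% of all genes lay under it. Fold changes of the 37 lay between -0.25 and 0.14 (log2, knockout minus control, on the log2(FPKM + 1) scale), with a median of -0.018, against -0.005 for all genes tested. The 95% interval of each of the 37 lay within a 1.5-fold change in either direction on this scale. The bound farthest from 0 was 0.448 in size, and 0.583 with a pseudocount of 0.1, which compresses low genes less. With limma-voom on reads rebuilt from FPKM, 36 of 37 intervals lay within it, and that of Aurkb reached from -0.643 to -0.015 (adjusted p = 0.663). Bub1, Cenpe and Cenpf, which act at the kinetochore, were below the filter, with mean levels over all libraries of 0.73, 0.795 and 0.898 FPKM.

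**Figure D2:**
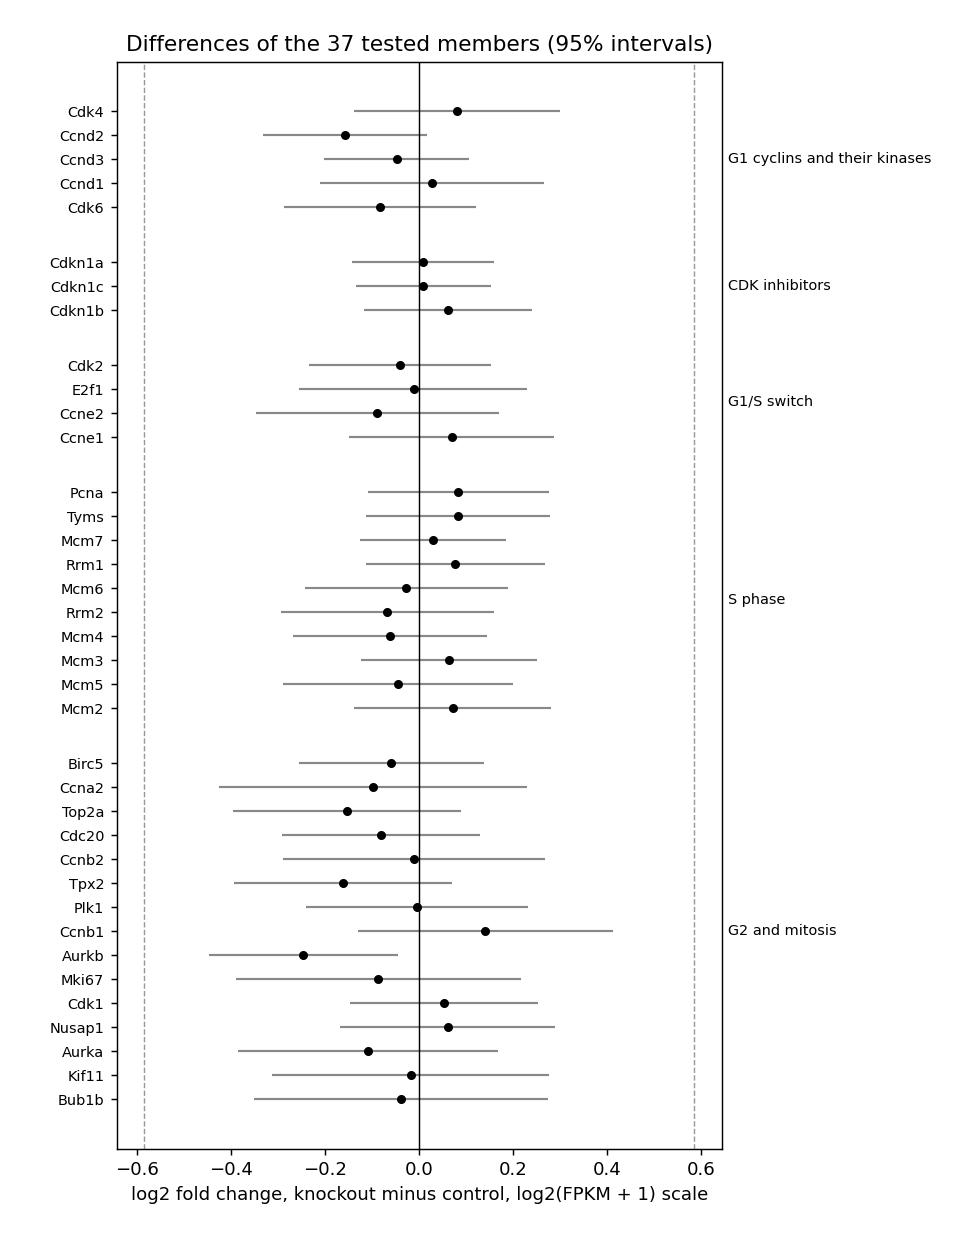
Log2 fold changes (knockout minus control, log2(FPKM + 1) scale) of the 37 tested members with 95% intervals from limma-trend on 3 against 3 libraries, grouped by role; dashed lines mark a 1.5-fold change. Every interval lies inside the dashed lines, and that of Aurkb alone does not cross 0, with an adjusted p of 0.869.

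None of the 5 G1 cyclins and kinases passed the test, with 2 above 0, 3 below and a median of -0.048. Cdk4, the main kinase partner of the D cyclins, stood at 133.09, 120.13 and 102.69 FPKM in the knockout libraries and at 119.79, 115.11 and 100.63 FPKM in controls. The groups overlapped, with both libraries numbered 3 at the low end, and the log2 fold change was 0.08 (SE 0.099, limma adjusted p = 0.927). The opposite-strand gene Tspan31 covers 19.7% of the annotated exonic bases of Cdk4, and the labels do not state strand-specific counting. Its relative Cdk6 was lower, at between 1.37 and 1.70 FPKM, so Cdk4 exceeded Cdk6 between 63.3-fold and 97.1-fold within a library in FPKM. This ratio depends on the transcript lengths, listed as 1347 bases for Cdk4 and 11525 bases for Cdk6. Reads rebuilt with these lengths were between 2437 and 3246 for Cdk4 and between 294 and 355 for Cdk6.

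Of the D-type cyclins, Ccnd2 and Ccnd3 were the main transcripts, followed by Ccnd1. Ccnd2 held 33.01, 34.50 and 30.96 FPKM in the knockout libraries and 40.03, 36.61 and 33.70 FPKM in controls. Control 3 lay below knockout 2, so the groups overlapped, and the log2 fold change was -0.16 (SE 0.079, with 95% bounds of -0.332 and 0.017, limma adjusted p = 0.88). Ccnd3 was at 30.9 ± 1.33 FPKM in knockouts and 32.0 ± 1.52 FPKM in controls (n = 3 each, SD). Ccnd1, a target of Wnt/beta-catenin signalling in many tissues, was at 15.13, 17.64 and 12.98 FPKM against 16.01, 15.29 and 13.34 FPKM, differing by 0.027 (log2, SE 0.108, limma adjusted p = 0.984). The gene annotated as LTO1 covers 23.4% of the exonic bases of Ccnd1 on the opposite strand.

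The 3 D cyclins together made up between 73.4 and 89.2 FPKM in a library. The share of Ccnd2 in that sum does not depend on library scaling. It was 41.2%, 41.3% and 42.2% in the knockout libraries and 44.9%, 43.3% and 43.6% in the controls. The groups did not overlap, but this share was singled out after its values were seen, among 11 such quantities. The smallest p that an exact two-sided permutation test can give for 3 against 3 is 0.1. The shares of Ccnd3 (between 37.2% and 40.1%) and Ccnd1 (between 17.2% and 21.1%) overlapped between the groups.

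The CIP/KIP inhibitors had the highest median level of the 5 groups, 58.8 FPKM against 31.5 FPKM for the G1 cyclins and kinases, and the smallest median spread. Cdkn1a, which encodes p21, an inhibitor induced by p53 and in many differentiating cells, was the highest of all 40 members. It held 238.83, 248.48 and 220.25 FPKM in the knockout libraries and 234.50, 239.63 and 228.49 FPKM in controls. The knockout values enclosed the control values, and the log2 fold change was 0.009 (SE 0.069, with 95% bounds of -0.143 and 0.16, limma adjusted p = 0.991). Cdkn1c, which encodes p57, a product of an imprinted gene, was at 58.9 ± 1.59 FPKM in knockouts and 58.6 ± 2.56 FPKM in controls (n = 3 each, SD). On the opposite strand Gm44732 covers 30.7% of its exonic bases. Cdkn1b, which encodes p27, was at 32.4 ± 2.77 and 30.9 ± 1.95 FPKM, differing by 0.061 (log2, SE 0.081). All 3 lay above 0, with a median of 0.009. Cdkn1a took between 71.8% and 72.9% of the summed level of the 3 inhibitors, and exceeded Cdk4 between 1.79-fold and 2.27-fold in a library. The median within-group SD was 0.067 (log2) for the inhibitors, against 0.107 for all genes tested.

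**Figure D3:**
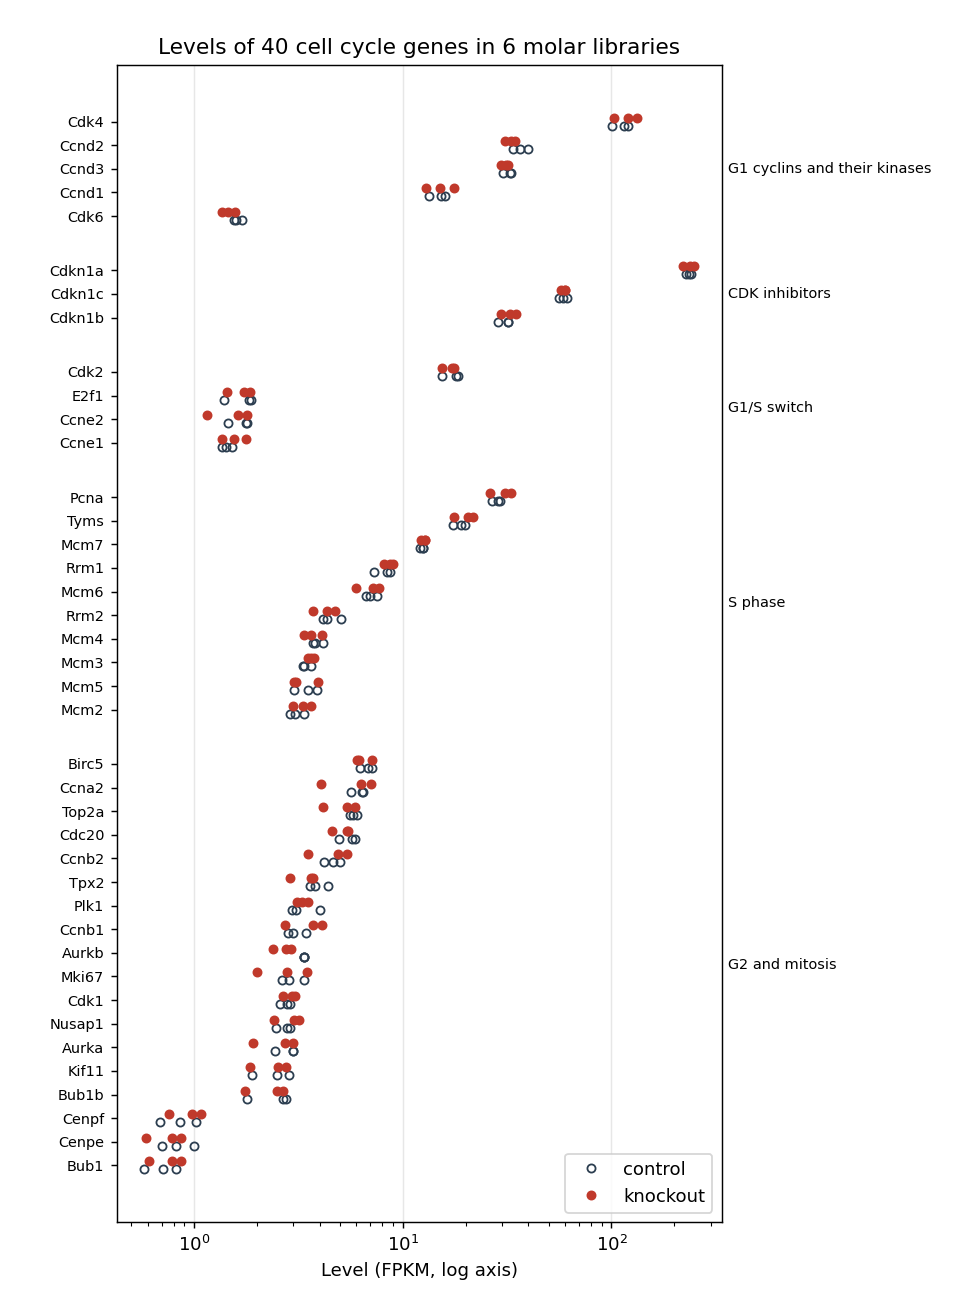
Levels of the 40 members in FPKM on a log axis, with 1 point per library (3 knockout, filled; 3 control, open), grouped by role and ordered by mean level. Cdkn1a and Cdk4 stand above 100 FPKM, the G2 and mitosis members at or below 7.14 FPKM, and the knockout and control points overlap for every gene but Aurkb.

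At the G1/S switch, the cyclin and factor transcripts were low and the kinase was not. Cdk2, the partner of cyclins E and A, was at 17.29, 17.62 and 15.39 FPKM in the knockout libraries and 18.42, 18.03 and 15.45 FPKM in controls. Its log2 fold change was -0.041 (SE 0.088). Ccne1 and Ccne2, the E cyclins that activate Cdk2, had means over all libraries of 1.5 and 1.6 FPKM, and E2f1, an activator of replication genes, 1.69 FPKM. Ccne2 ranged from 1.16 FPKM in knockout 3 to 1.80 FPKM in knockout 2 and control 3. None of the 4 passed, with 1 above 0, 3 below and a median of -0.027. Ccne1, Ccne2 and E2f1 were read at between 48 and 102 reads per library, and their SEs were 0.099, 0.118 and 0.11.

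S-phase members showed no difference past the test either, and their order of levels was the same in both groups for the most abundant. Of the 10, 6 lay above 0 and 4 below, with a median of 0.046 and intervals reaching from -0.295 to 0.281. Pcna, the sliding clamp of DNA polymerase, was at 33.10, 30.86 and 26.31 FPKM in the knockout libraries and 29.33, 28.58 and 26.85 FPKM in controls. Knockout 3 was the lowest of the 6 and knockout 1 the highest, and the log2 fold change was 0.083 (SE 0.088, limma adjusted p = 0.921). Tyms, which makes thymidylate for DNA, followed at 21.61, 20.61 and 17.66 FPKM against 19.95, 18.95 and 17.39 FPKM, with overlapping groups. GENCODE M21 lists 2 pseudogenes named for Pcna and 1 for Tyms that can share reads with them. Rrm1 and Rrm2, the large and small subunits of ribonucleotide reductase, were at 8.62 ± 0.415 against 8.13 ± 0.734 FPKM and at 4.27 ± 0.505 against 4.52 ± 0.501 FPKM.

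The 6 MCM genes encode the subunits of the replicative helicase, which holds 1 copy of each. Their transcripts were unequal. Mcm7 stood highest, at 12.6 ± 0.373 FPKM in knockouts and 12.4 ± 0.248 FPKM in controls, and Mcm6 followed at 6.95 ± 0.889 and 7.08 ± 0.444 FPKM (n = 3 each, SD). The other 4 had means over all libraries between 3.21 (Mcm2) and 3.81 FPKM (Mcm4). Mcm7 exceeded Mcm3 between 3.24-fold and 3.74-fold within a library. FPKM rests on 1 transcript length per gene, and the table lists that of the longest. Log2 fold changes of the 6 lay between -0.062 (Mcm4) and 0.071 (Mcm2).

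G2 and mitosis members lay at low levels, between 0.73 (Bub1) and 6.59 FPKM (Birc5) on average, and 12 of the 15 tested were below 0. Their median log2 fold change was -0.06, the lowest of the 5 groups, with 0 past the test. The sign of this median rested on 1 library. Without knockout 3 it was 0.063, with 9 of 15 above 0 and 6 below, while the median of all genes moved to 0.024. Without control 3 it was -0.13, where all genes had -0.034. With each of the other 4 libraries left out it stayed below 0.

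Knockout 3 held the lowest value of most mitotic members. Among all 18, low ones included, it was the lowest of the 6 libraries for 13 and the highest for 0. Among the 15 tested it was the lowest for 12 (80.0%), where it was the lowest for 2982 of all 11934 genes tested. With median-ratio scaling, which removes the general shift between libraries, it was the lowest for 11 of 15 (73.3%) against 14.6% of all genes. The median ratio of knockout 3 to the mean of the other 5 libraries was 0.757 for the 15, 0.907 for the 10 S-phase members and 0.951 for all genes. The difference between knockout 3 and its 2 group mates is a description of libraries, with no test.

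Ccna2, cyclin A2, which acts in S phase and G2, had the lowest such ratio of the members, 0.636. It held 7.08 and 6.29 FPKM in knockouts 1 and 2, 4.05 FPKM in knockout 3, and 6.44, 6.37 and 5.65 FPKM in controls. Knockout 1 was thus the highest and knockout 3 the lowest of the 6, and the group difference was -0.098 (log2, SE 0.149, limma adjusted p = 0.944). Mki67, which encodes the proliferation antigen Ki-67, held 2.79, 3.47 and 2.01 FPKM in the knockout libraries and 3.35, 2.85 and 2.65 FPKM in controls. Here knockout 2 was the highest and knockout 3 again the lowest of the 6. Top2a, the topoisomerase that untangles sister chromatids, held 5.44, 5.91 and 4.16 FPKM against 6.07, 5.77 and 5.61 FPKM, and differed by -0.15 (log2, SE 0.11, limma adjusted p = 0.891).

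The B cyclins, which activate Cdk1 for entry into mitosis, had the same low library. Ccnb1 was at 4.13, 3.74 and 2.73 FPKM in the knockout libraries and 3.44, 3.0 and 2.81 FPKM in controls, the highest fold change of the members at 0.14 (log2, SE 0.124, limma adjusted p = 0.909). Ccnb2 was at 4.92, 5.41 and 3.53 FPKM against 4.66, 5.0 and 4.18 FPKM, differing by -0.011 (log2, SE 0.127). Cdk1 itself was steadier, at 2.95, 3.06 and 2.67 FPKM against 2.58, 2.80 and 2.88 FPKM, and knockout 3 was not its lowest library. GENCODE M21 lists 1 pseudogene named for Ccnb1 and 1 for Ccnb2.

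Genes of the spindle and its checkpoint gave a like picture. Aurka, the kinase of the spindle poles, was at 1.92 FPKM in knockout 3 and between 2.45 and 2.99 FPKM elsewhere. Tpx2, which activates it, was at 3.42 ± 0.45 FPKM in knockouts and 3.94 ± 0.412 FPKM in controls (n = 3 each, SD), differing by -0.16 (log2, SE 0.106, limma adjusted p = 0.891). Kif11, the motor that separates the poles, held 2.52, 2.76 and 1.85 FPKM against 2.87, 2.49 and 1.90 FPKM, and Bub1b, the checkpoint kinase BubR1, 2.68, 2.50 and 1.76 FPKM against 2.67, 2.76 and 1.79 FPKM. For both of these, control 3 lay close to knockout 3. Cdc20, which activates the anaphase-promoting complex, was at 5.17 ± 0.492 and 5.53 ± 0.491 FPKM (n = 3 each, SD). Nusap1, a binder of spindle microtubules, had a log2 fold change of 0.061 (SE 0.104). Plk1, a kinase of mitotic entry and exit, was not low in knockout 3 (3.29 FPKM) and was highest in control 1 (4.01 FPKM).

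**Figure D4:**
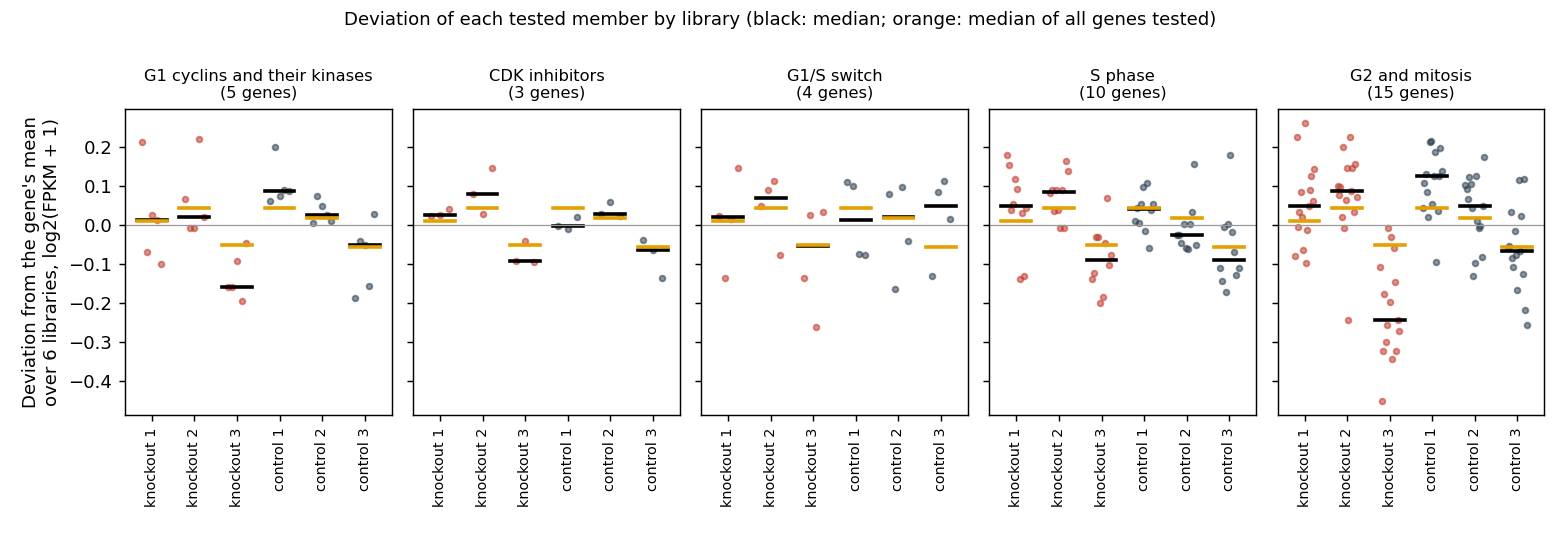
Deviation of each tested member from its own mean over the 6 libraries, in log2(FPKM + 1), by library and role; black bars are the members' medians and orange bars the median of all 11934 genes tested. In the G2 and mitosis panel the median of knockout 3 lies at -0.244, against -0.05 for all genes in that library, and no other library's median in that panel is below -0.066.

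Aurkb was the member with the largest difference and the only one of the 37 whose groups did not overlap. It encodes the kinase of the chromosomal passenger complex, which corrects the attachment of chromosomes to the spindle. Its position in mm10 is chr11:69045647-69051664, plus strand. It held 2.75, 2.39 and 2.93 FPKM in the knockout libraries and 3.38, 3.38 and 3.35 FPKM in controls, at between 84 and 119 reads. Every knockout value was below every control value, as in 5.35% of all genes tested. Another 4.8% had every knockout value above, 10.1% in both directions together. Knockouts differed from controls by -0.25 (log2, SE 0.092, interval from -0.448 to -0.045 at 95%), with an unadjusted limma p of 0.021 and an adjusted p of 0.869. Knockout 3 was the highest knockout library here, unlike for most mitotic members. The 3 other subunits of the complex did not differ past the test. Birc5, survivin, had a log2 fold change of -0.06 (SE 0.09). Incenp and Cdca8, named after their values were seen, had -0.066 (SE 0.111) and 0.17 (SE 0.131).

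The authors' deposited table calls more of the members. A q-value under 0.05 stands beside 24.4% of the genes in the authors' deposited table (4058 of 16662), and 6 of the 40 members (15.0%) have one there. These 6 are Ccnd2, Cdk4, Tyms, Top2a, Aurkb and Tpx2. In the authors' deposited table Ccnd2 has a log2 ratio of -0.163 and a q-value of 2.91e-15, Aurkb one of -0.322 with 0.0174, and Cdk4 one of 0.0872 with 0.000643. The share among the members is below that among all genes, and the labels do not say how that test treated replicates. For Ccnd2, Cdk4, Tyms, Top2a and Tpx2 the 3 knockout and 3 control values overlap.

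Among 4 further lists of 119 cell cycle genes, 0 passed the adjusted threshold. Of 36 further replication genes, 32 were tested and 0 passed, with 21 above 0, 11 below and a median of 0.03. Rfc2, a subunit of the clamp loader, was at 19.0 ± 2.01 FPKM in knockouts and 17.5 ± 1.77 FPKM in controls, and Rpa1, which binds single-stranded DNA, at 13.8 ± 0.89 and 14.2 ± 0.853 FPKM (n = 3 each, SD). Of 52 further G2 and mitosis genes, 44 were tested and 0 passed, with 28 above 0, 16 below and a median of 0.022, on the other side of 0 from the members of that phase. Bub3, a checkpoint protein, was at 19.4 ± 2.18 and 17.9 ± 1.34 FPKM, and Pttg1, securin, at 18.8 ± 0.699 and 18.7 ± 1.08 FPKM. Knockout 3 was the lowest library for 21 of these 44 (47.7%) and for 16 (36.4%) after median-ratio scaling.

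The regulators upstream gave 0 calls as well. Of 19 E2F, retinoblastoma and DREAM factors 17 were tested, with 10 above 0, 7 below and a median of 0.022. Rb1, the retinoblastoma protein, was at 27.3 ± 0.455 FPKM in knockouts and 27.4 ± 0.964 FPKM in controls (n = 3 each, SD). E2f4, the main E2F of resting cells, held 23.1, 21.59 and 21.66 FPKM against 22.32, 22.3 and 21.28 FPKM. Of 12 INK4 inhibitors, p53 genes and genes of cell cycle exit 11 were tested, with 6 above 0, 5 below and a median of 0.017. Btg1, an antiproliferative factor, held 81.98, 78.44 and 69.18 FPKM in the knockout libraries and 67.87, 68.77 and 69.45 FPKM in controls, differing by 0.15 (log2, SE 0.074, limma adjusted p = 0.88). Knockout 3 lay among the controls. Trp53, which encodes p53, was at 33.7 ± 2.83 and 31.0 ± 3.33 FPKM.

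Markers of other tissue also differed between libraries. The 8 skeletal muscle markers, of which 4 passed the filter and Myog was at 0 in at least 1 library, summed to between 11.5 and 66.5 FPKM in knockouts and between 6.71 and 62.5 FPKM in controls. Knockout 3 had the highest sum, 66.5 FPKM, and control 1 the next, 62.5 FPKM. Control 1 held the highest value of 6 of the 15 tested mitotic members, where it was the highest for 27.1% of all genes, and of 4 of 15 against 15.7% after median-ratio scaling. The 6 oral mucosa markers summed to 197 FPKM in control 1. They summed to 26.0, 33.0 and 19.2 FPKM in the knockout libraries, and to 31.3 and 22.2 FPKM in controls 2 and 3. The 5 endothelial markers summed to 61.4 FPKM in knockout 3 and to between 51.3 and 56.0 FPKM elsewhere. The 5 odontoblast markers, of which 4 passed the filter, summed to 7560 FPKM in knockout 3 against 4720 and 5450 FPKM in its group mates, and to between 6280 and 7860 FPKM in controls. The 6 dental epithelium markers were at 2060 FPKM in knockout 3 and 1850 FPKM in control 3, against 2300 FPKM or more in the other 4. The part of these tissues in the low mitotic values of knockout 3 was not tested. Between the groups, the 4 osteoclast markers summed to between 53.1 and 70.7 FPKM in knockouts and between 75.7 and 78.4 FPKM in controls, and the 5 dental papilla markers to 172 FPKM in each knockout library and between 174 and 182 FPKM in controls. Neither sum overlapped between the groups, and these were picked from the sums of all the marker lists. Among single genes, 10.1% of all tested did not overlap in either direction. For the dental papilla list this held for 1 of 5 markers, with a median log2 fold change of -0.02. For the osteoclast list it held for all 3 tested, with a median of -0.453. The 4 osteoblast markers had a median log2 fold change of -0.30, with 3 below 0. Their sum overlapped, at between 1830 and 2070 FPKM in knockouts and between 1620 and 2110 FPKM in controls. At an unadjusted limma p under 0.05 there were 2 of these 4 and all 3 tested osteoclast markers, against 5.7% of all genes. So were 1 of 6 dental epithelium, 1 of 6 ameloblast, 1 of 5 dental papilla and 1 of 5 tested oral mucosa markers. The lowest limma adjusted p was 0.144 for osteoblast and 0.515 for osteoclast markers. The 4 tested odontoblast markers were all below 0, with a median of -0.196. The part of these cells in the difference of Aurkb was not tested.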

How the data were processed

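The authors deposited FPKM per gene and library in 1 table, per the file headers, together with their log2 ratio of knockout to control, p-value and q-value. Reads were aligned to mm10 with Bowtie2, per the submitters' processing notes; no source used here gives the counting tool or the authors' test (not given in the sources used here). Groups come from the genotype labels.

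A gene entered the fit when 3 or more of the 6 libraries reached 1 FPKM. Limma-trend (limma 3.58.1, R 4.3.3) took log2(FPKM + 1) and 1 term, the group, two-sided, with Benjamini-Hochberg adjustment over all 11934 genes at 0.05. Fold changes on this scale understate those of low genes. The spacing of low FPKM values, with 40 bases taken off each length, gave the read depth. With it, 83.3% to 88.4% of these values came within 0.15 of a whole number. Depth and the 40 bases were both chosen to bring these values near whole numbers, so that share does not check them. The named genes were all members, Wnt10a and the 2 most abundant genes of each further list; Incenp and Cdca8 were added after their values were seen. The members and lists were chosen with earlier results of these data known. The test was also run on simulated data with independent noise in each library, and no result here rests on that run. Alternatives were other pseudocounts, filters and scaling, a replicate block, limma-voom on rebuilt reads and each library left out. Tables used pandas 2.3.3 and plots matplotlib 3.10.9. Overlaps and pseudogenes come from GENCODE M21 on GRCm38.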

Additional observations from a re-analysis of the deposited data

How the results depend on the processing

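No tested member passed the adjusted threshold under any of 12 alternatives, and the lowest limma adjusted p of a member was 0.229 (Aurkb without knockout 3). The filter at 5 FPKM left 17 members to test, and Aurkb was not among them. The count over all genes, 1 as reported, was 0 with no filter on low values (924 at an unadjusted limma p under 0.05), 3 with a filter at 5 FPKM and between 1 and 6 with a library left out (6 without knockout 3, 3 without control 2). Wnt10a then had an adjusted p of 0.106 with no filter. With replicate number as a block the count was 8, with 0 members. Same-numbered libraries deviated together with r of -0.0622, 0.17 and 0.388, and knockout 1 correlated best with control 2 (0.304), while knockout 3 correlated best with control 3. With 1 of 3 pairs not above 0.1 the numbers were treated as names, and whether they mark litters is not in the labels.

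Of 37 tested members, 17 changed sign in 1 or more alternatives, none with a difference over 0.11 in size as reported; the causes were not tested. Plk1 was at 0.004 with median-ratio scaling. With libraries left out in turn, log2 fold changes ranged from -0.077 to 0.131 for Ccnd1, -0.006 to 0.179 for Cdk4, -0.03 to 0.057 for Cdkn1a, -0.021 to 0.041 for Cdkn1c, -0.168 to 0.02 for Ccne2, -0.116 to 0.016 for Cdk2 and -0.098 to 0.052 for E2f1. They ranged from -0.139 to 0.021 for Mcm5, -0.094 to 0.065 for Mcm6, -0.13 to 0.008 for Rrm2, -0.222 to 0.063 for Mki67, -0.236 to 0.103 for Ccna2, -0.114 to 0.137 for Ccnb2, -0.2 to 0.026 for Aurka, -0.176 to 0.088 for Bub1b, -0.072 to 0.102 for Plk1 and -0.132 to 0.099 for Kif11. Medians ranged from -0.086 to -0.015 for G1 cyclins and kinases, -0.009 to 0.057 for inhibitors, -0.068 to 0.019 for the G1/S switch, 0.015 to 0.058 for S phase and -0.132 to 0.063 for mitosis. Median-ratio scaling of the library pattern was added after the data were seen.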
